A study of Mus musculus with 20 samples.

Results

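Potassium channel genes were followed in RNA sequencing of the mouse hippocampus. A gene was a member when its symbol begins with Kcn, the mouse prefix for potassium channel subunits, and its mean over the 20 libraries was 1 CPM or more (CPM being a library's count for the gene scaled to a fixed library size). Antisense genes, whose symbols end in os or ot, were left out. This gave 74 members among 94 Kcn genes in a table of 47729 genes, and all 74 passed the count filter of the test. The members closest above the limit were Kcnmb1 at 1.15 CPM, Kcna5 at 1.92 CPM and Kcnj13 at 2.24 CPM, and the closest below were Kcnj14 at 0.947 CPM, Kcne4 at 0.911 CPM and Kcnh8 at 0.877 CPM.

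The libraries came from male mice of the inbred strain C57BL/6. They form 4 groups of 5: controls without intervention aged 5 months, mice of an enriched environment aged 5 months, and the same pair of groups aged 24 months. All 4 groups share strain, sex and tissue, and no transgene or drug is named for any of them. An enriched environment usually means roomier group housing with toys, tunnels or running wheels; the labels used here do not describe this one or its length. The design asks what age and housing each change, and whether the effect of housing differs between ages. No label says that every library came from its own animal, so the p-values measure the spread between these samples, which may in part be technical.

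Potassium channels let potassium leave the cell, which returns an excited neuron to rest and sets how readily and how fast it fires. Most are tetramers of pore-forming subunits, opened by voltage, by calcium or sodium inside the cell, or by G proteins, or open at rest as leak channels. Cytoplasmic and membrane partners (the Kcnab, Kcnip, Kcne and Kcnmb genes) and silent subunits that form no channel alone alter their number and timing. In the hippocampus, Kv4 channels carry the fast transient current of dendrites, Kv1 channels sit along axons, Kv3 channels serve fast-firing interneurons, KCNQ channels carry the M current, and Kir4.1 of astrocytes takes up potassium that neurons release.

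Total counts per library ran from 26065565 to 37366991. Counts of any 2 libraries of a group differed more than repeated sequencing of 1 library would give (chi-square 5.92 to 50.6 per degree of freedom over 40 pairs). This cannot tell whether 2 libraries came from different animals. Marker genes were examined beside the tissue label. All 4 markers of neurons, of dentate granule cells, of CA1 and of CA3 averaged 1 CPM or more. None of them was at 0 in every library. The markers of thalamus, striatum and neocortex all passed the same bar, so it cannot tell the hippocampus from those tissues. Some libraries stood apart in markers of other cells. The summed level of 4 oligodendrocyte markers was 9233 CPM in replicate 5 of the 5-month enriched group and at most 6560 CPM elsewhere. The summed level of 4 astrocyte markers was 2130 CPM in replicate 4 of that group and at most 1229 CPM elsewhere. Albumin, a liver transcript, reached 68.2 CPM in replicate 5 of the 24-month controls and at most 17.4 CPM elsewhere. The summed level of 5 choroid plexus markers ranged from 69.4 to 4236 CPM.

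Levels of different genes are compared here only per length, as CPM per kb of exon. Summed over the 74 members the level was 913 ± 43.5 CPM per kb (SD, n = 20 libraries), from 812 to 963. It was 903 ± 30.3 in 5-month controls, 909 ± 64.3 in 5-month enriched mice, 922 ± 23.1 in 24-month controls and 920 ± 55.4 in 24-month enriched mice (SD, n = 5 each), so the group means lay within the spread of single libraries. A few genes made up most of it. Kcnab2, a cytoplasmic subunit that binds Kv1 channels, alone held 16.7% at 152 CPM per kb, the 5 highest members held 36.4% and the 10 highest 51.8%. After it came Kcnip2 (54.7 CPM per kb), which binds Kv4 channels, and Kcnj10 (47.8), the Kir4.1 gene of astrocytes. The lowest member was Kcnmb1 at 0.274 CPM per kb, a BK subunit known from smooth muscle.

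**Figure D1:**
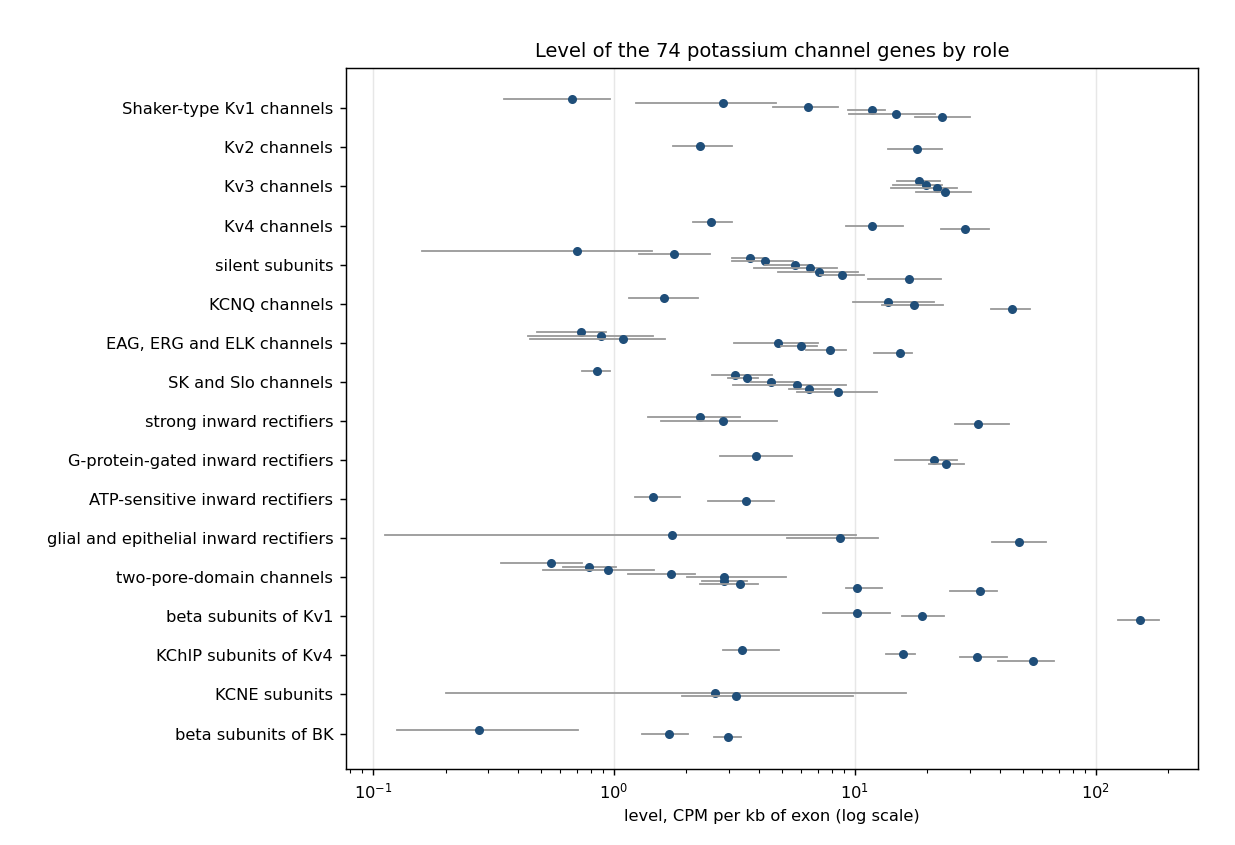
Level of each of the 74 potassium channel genes in CPM per kb of exon on a log axis, grouped by role; each point is the mean of 20 libraries and each line runs from the lowest to the highest library. Kcnab2 lies apart at the right with 152 CPM per kb, and the longest lines belong to Kcne2 and Kcnj13.

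With age, 2 members were called at an adjusted p under 0.05 with both housings in the comparison, and both are silent subunits. Kcns1 rose from 10.2 ± 1.04 to 12.8 ± 1.32 CPM and Kcng4 fell from 7.50 ± 0.960 to 5.96 ± 0.665 CPM between 5 and 24 months (SD, n = 10 each). Both encode proteins that form no channel alone and join Kv2 subunits in mixed channels. These 2 of 74 are 2.70%, beside 3.04% of all 17527 genes tested, so the share was near the background. The test was edgeR's quasi-likelihood test over all 20 libraries with p-values adjusted over all genes tested by the method of Benjamini and Hochberg.

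The 250 bases ahead of the start site are shown for these 2 genes, since they are the ones called. They are taken from RefSeq (build GRCm38.p6), which held windows for 53 of the 74 members. Both lie on the minus strand and are printed 5′ to 3′ in the direction of the gene. The motifs searched on both strands were chosen after the values were seen: a TATA box (TATAAA), the half-site of a cAMP response element (TGACG), a clock-type E-box (CACGTG) and an OTX site (TAATCC). None of them occurs in either window. The window of Kcns1 is at chr2:164171114-164171363, has 63.2% G or C and holds 17 CpG. That of Kcng4 is at chr8:119635681-119635930, has 60.4% G or C and holds 4 CpG. The median is 52.4% and 6 CpG over all promoter windows and 59.2% and 8 CpG over those of the members.
Kcns1: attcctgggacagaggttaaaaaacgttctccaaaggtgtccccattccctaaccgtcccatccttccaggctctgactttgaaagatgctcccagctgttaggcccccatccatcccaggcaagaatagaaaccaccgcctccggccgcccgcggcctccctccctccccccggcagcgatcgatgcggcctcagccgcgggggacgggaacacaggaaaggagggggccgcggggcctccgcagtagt
Kcng4: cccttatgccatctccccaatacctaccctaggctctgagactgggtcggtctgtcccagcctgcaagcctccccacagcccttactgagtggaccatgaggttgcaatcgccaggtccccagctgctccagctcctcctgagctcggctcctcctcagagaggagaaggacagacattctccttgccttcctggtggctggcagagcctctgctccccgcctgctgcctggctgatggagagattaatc

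Kcns1 (ENSMUSG00000040164) lies on chromosome 2 from 164163619 to 164171113 in GRCm38. In replicates 1 to 5 its level was 10.9, 9.33, 11.2, 8.40 and 10.5 CPM in 5-month controls and 10.3, 9.71, 11.97, 9.31 and 10.3 CPM in 5-month enriched mice. The 24-month values were 13.02, 12.6, 12.3, 12.3 and 10.6 CPM in controls and 14.4, 11.4, 13.8, 15.0 and 12.5 CPM in enriched mice. Of the 10 older libraries, 8 lay above every younger one, and the exceptions were replicate 5 of the controls and replicate 2 of the enriched mice. The log2 fold change was 0.33 ± 0.07 (SE; 95% interval 0.19 to 0.47; adjusted p = 0.00890), a 1.26-fold rise. It was 0.27 ± 0.09 in controls (adjusted p = 0.407) and 0.38 ± 0.09 in enriched mice (adjusted p = 0.0750), and neither of these was called alone.

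Kcng4 (ENSMUSG00000045246) lies on chromosome 8 from 119623854 to 119635680. Its level at 5 months was 6.81, 7.44, 6.11, 9.57 and 7.63 CPM in controls and 7.10, 7.78, 6.91, 8.45 and 7.17 CPM in enriched mice. At 24 months it was 6.30, 5.89, 4.85, 6.97 and 6.5996 CPM in controls and 5.19, 5.87, 6.597, 5.85 and 5.51 CPM in enriched mice. In enriched mice every older library lay below every younger one, while the control groups overlapped. The log2 fold change was -0.33 ± 0.08 (SE; 95% interval -0.50 to -0.16; adjusted p = 0.0308), with -0.29 ± 0.12 in controls (adjusted p = 0.480) and -0.36 ± 0.12 in enriched mice (adjusted p = 0.179). The call was lost when any 1 of 7 libraries was left out (5-month control 4 or 5, 5-month enriched 2, 24-month control 2 or 3, 24-month enriched 1 or 5; adjusted p up to 0.0586), and over all 20 omissions the log2 fold change lay between -0.36 and -0.28. Kcns1 stayed called without any 1 of the 20 libraries (adjusted p 0.00517 to 0.0208).

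**Figure D2:**
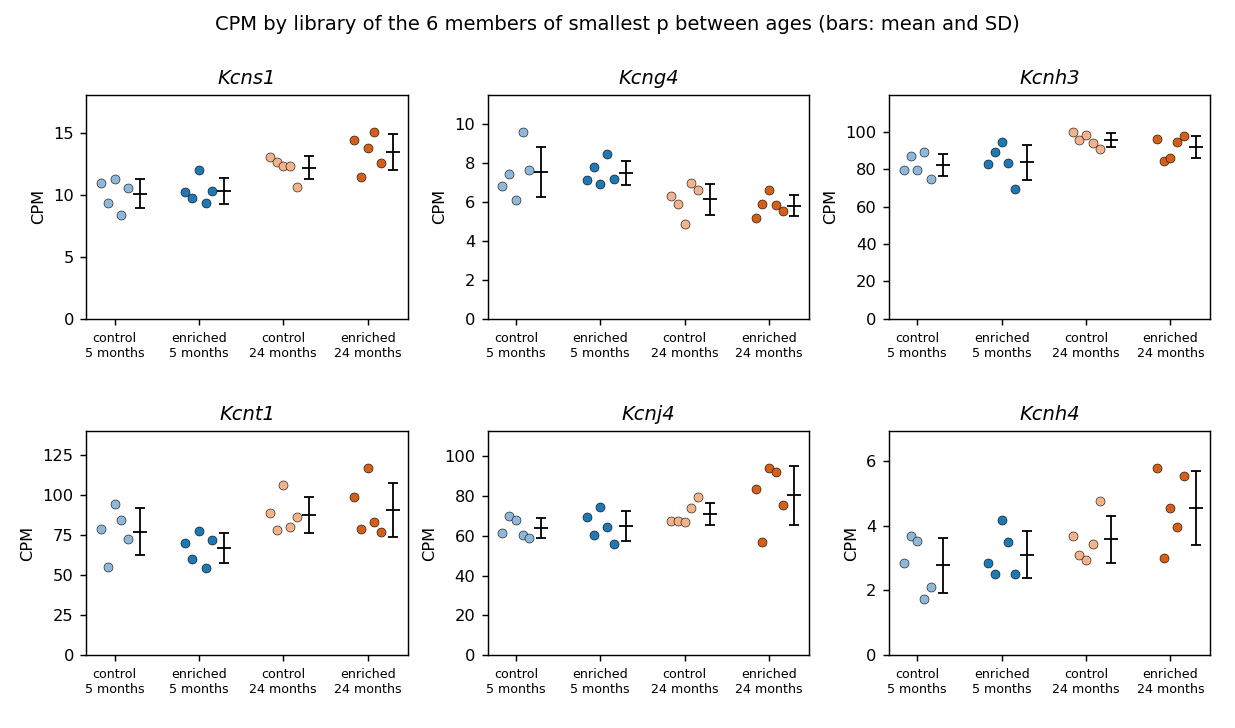
CPM of the 6 members with the smallest p between ages in every library, by group; points are libraries and the bar beside them is the mean with its SD. Kcns1 is higher and Kcng4 lower at 24 months, while Kcnh3, Kcnt1, Kcnj4 and Kcnh4 did not pass the threshold.

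The next members by p did not pass the threshold. Kcnh3, an ELK channel of forebrain neurons, had a log2 fold change of 0.18 ± 0.05 (adjusted p = 0.0566). Its level at 5 months was 79.7, 86.9, 79.5, 88.9 and 74.8 CPM in controls and 82.5, 89.0, 94.3, 83.5 and 69.2 CPM in enriched mice. At 24 months it was 99.8, 95.3, 97.99, 94.0 and 90.5 CPM in controls and 96.1, 84.5, 86.0, 94.7 and 97.5 CPM in enriched mice. All older controls lay above all younger controls, while the enriched groups overlapped.

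Kcnt1, a sodium-activated channel, had 0.31 ± 0.10 (adjusted p = 0.0782), from 72.1 ± 12.8 to 89.5 ± 13.6 CPM (SD, n = 10 each). Kcnj4, an inward rectifier of principal neurons, had 0.23 ± 0.08 (adjusted p = 0.104), from 64.4 ± 5.98 to 75.6 ± 11.7 CPM. Kcnh4, a relative of Kcnh3, had 0.46 ± 0.15 (adjusted p = 0.108), from 2.94 ± 0.764 to 4.06 ± 1.03 CPM. In each of these genes the ages overlapped. For Kcnj4, replicate 2 of the 24-month enriched group lay at 56.8 CPM and the other 4 of that group at 75.5 to 93.9 CPM, and without it Kcnj4 was called at 0.28 (adjusted p = 0.0138). Kcnh3 was called without that library, without 5-month control 4 or without 5-month enriched 3 (adjusted p down to 0.0311), and Kcnt1 without 5-month control 3 (adjusted p = 0.0485).

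Over all members, 14 of 74 (18.9%) had an unadjusted p under 0.05 between ages, beside 18.1% of all genes tested. Of the 74, 44 had a log2 fold change above 0 (59.5%, beside 49.4% of all genes), and the median was 0.03 beside -0.00 over all genes. This median fell just below 0 without 24-month control 3 (-0.0008) and with choroid plexus and meninges covariates (-0.0032), and it was 0.05 at most when 1 library was left out. No member had all older libraries on one side of all younger ones, beside 0.285% of all genes. The 95% interval lay within a 1.5-fold change either way for 67 members (90.5%), beside 93.0% of tested genes that averaged 1 CPM or more. The other 7 were Kcnj13, Kcne1l, Kcna5, Kcnmb1, Kcnh4, Kcne2 and Kcng3.

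Within 1 housing no member was called between ages. In controls 0 of 74 were called, beside 0.0913% of all genes, and 5 (6.76%) had an unadjusted p under 0.05, beside 8.38%. The libraries of both ages did not overlap for 2 members (2.70%, beside 2.11%): Kcnh3, which was higher at 24 months (0.22 ± 0.07, adjusted p = 0.339), and the Kv1 gene Kcna6, which was lower (-0.10 ± 0.08, adjusted p = 0.808). In enriched mice 0 of 74 were called, beside 0.496%, and 9 (12.2%) had an unadjusted p under 0.05, beside 11.8%. There Kcng4 alone did not overlap (1.35%, beside 2.9%), and Kcnt1 had 0.44 ± 0.14 (adjusted p = 0.171). DESeq2 called none in controls and Kcns1 in enriched mice.

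**Figure D3:**
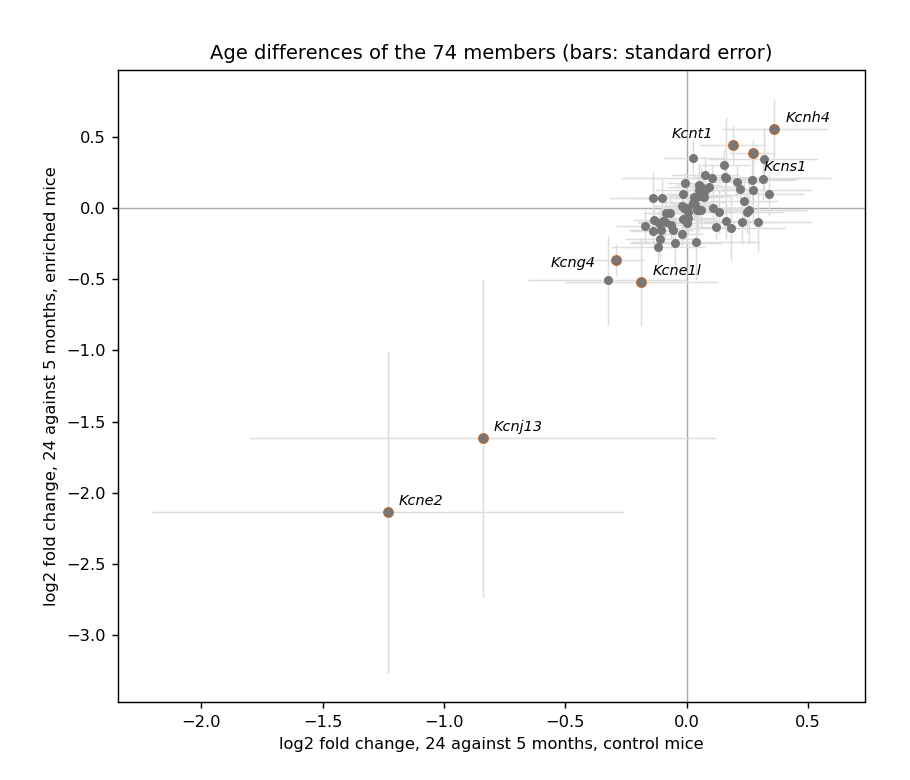
Log2 fold change between 24 and 5 months of each of the 74 members in control mice (horizontal axis) and in enriched mice (vertical axis); bars are standard errors, and 7 members are marked by name. Most points lie near 0, and Kcne2 and Kcnj13 lie far to the lower left with wide bars.

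Among the pore-forming Kv1 to Kv4 genes, none was called by edgeR in any comparison. Of the 6 Kv1 genes, which open at low voltage and damp excitability, Kcna2 was highest at 23.0 CPM per kb (range 17.8 to 29.9 over the libraries), then Kcna1 (14.9), Kcna6 (11.7) and Kcna4 (6.396), which inactivates quickly. Their log2 fold changes with age ran from -0.10 in Kcna3 to 0.33 in Kcna5, both low in this tissue. Kcnb2, a Kv2 gene, stood at 2.28 CPM per kb, with an age difference of 0.10 ± 0.10.

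Of the Kv3 genes, Kcnc4 stood at 21.9 CPM per kb, Kcnc1 at 19.7 and Kcnc2 at 18.4, and their ranges over the libraries overlapped. Their age differences were 0.14 ± 0.10, 0.02 ± 0.09 and 0.01 ± 0.08. Of the Kv4 genes, Kcnd2 led at 28.6 CPM per kb, Kcnd3 followed at 11.8, and Kcnd1 stood at 2.52. The age differences were -0.05 ± 0.08, 0.03 ± 0.08 and -0.11 ± 0.06.

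The 9 silent subunits together held 55.2 ± 4.10 CPM per kb (SD, n = 20). Kcnf1 was the highest of them (16.8), followed by Kcnv1 (8.83), while the called Kcns1 and Kcng4 stood at 4.24 and 1.77. The other 7 silent subunits had age differences from -0.17 in Kcng1 to 0.18 in Kcng3, and none of these passed the test.

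Of the KCNQ genes, Kcnq3 stood at 17.6 CPM per kb and Kcnq5 at 13.7. Their age differences were 0.07 ± 0.10 and 0.11 ± 0.10. In the family of EAG, ERG and ELK channels Kcnh3 was highest (15.3 CPM per kb), then Kcnh1 (7.85), Kcnh2 (5.99) and Kcnh7 (4.78). Of these 7 genes 6 had an age difference above 0, beside 59.5% of all members and 49.4% of all genes tested, and none was called. Kcnh7 overlaps the gene Gca, and reads without a strand cannot be told apart where genes overlap.

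The channels opened by calcium or sodium inside the cell were of middle level. Kcnt1 stood at 8.50 CPM per kb, Kcnn2, an SK channel of the afterhyperpolarisation, at 6.44, the BK pore gene Kcnma1 at 5.77, Kcnt2 at 4.50, Kcnn1 at 3.55 and Kcnn3 at 3.18. The pH-sensitive relative Kcnu1, known from sperm, stood at 0.852. Apart from Kcnt1, their age differences ran from -0.15 in Kcnn3 to 0.03 in Kcnn2, none of them called. Of the BK partners, Kcnmb4, the neuronal form, stood at 2.96 CPM per kb and Kcnmb2 at 1.69.

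Inward rectifiers conduct best near the resting potential. Kcnj10 (47.8 CPM per kb) and its partner Kcnj16 (8.66) form the glial channel, and their age differences were -0.05 ± 0.09 and 0.22 ± 0.10 (adjusted p = 0.264 for Kcnj16). Of the strong rectifiers Kcnj4 stood at 32.5 CPM per kb, Kcnj2 at 2.83 and Kcnj12 at 2.27. The G-protein-gated genes Kcnj3 and Kcnj9 stood at 23.9 and 21.3 and Kcnj6 at 3.88, with age differences of 0.05 ± 0.06, 0.08 ± 0.10 and -0.15 ± 0.13. The pores of ATP-sensitive channels were lower, with Kcnj11 at 3.53 and Kcnj8, known from pericytes, at 1.45.

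Among the 9 two-pore-domain genes, which carry leak current, Kcnk1 stood at 32.9 CPM per kb and Kcnk2 at 10.2, and the others at 3.34 or less. Of the 9, 7 had an age difference above 0, beside 59.5% of all members and 49.4% of all genes tested, and none was called. The smallest p belonged to Kcnk3 (0.19 ± 0.08, adjusted p = 0.196), Kcnk12 (0.16 ± 0.07, adjusted p = 0.228) and Kcnk4 (0.19 ± 0.09, adjusted p = 0.270). Kcnk4 shares 13.1% of its exon length with Catsperz on the same strand, and Kcnk3 overlaps Gm9899, so their counts are uncertain in part. The microglial Kcnk13 stood at 2.86 and Kcnk9 and Kcnk10 at 0.947 and 0.550 CPM per kb.

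The highest members, Kcnab2 and Kcnip2, encode cytoplasmic partners, while other partners were lower. Beside Kcnab2, Kcnab1 stood at 19.0 CPM per kb and Kcnab3 at 10.2, and their age differences were 0.10 ± 0.06, 0.04 ± 0.06 and 0.26 ± 0.10 (adjusted p = 0.176 for Kcnab3). The 4 KChIP genes, whose calcium-binding proteins carry Kv4 channels to the surface, were Kcnip2 (54.7), Kcnip3 (32.1), Kcnip4 (15.8) and Kcnip1 (3.42). Kcnip2 had an age difference of -0.15 ± 0.07 (adjusted p = 0.233) and Kcnip4 one of 0.12 ± 0.05 (adjusted p = 0.208), so neither was called. Together the KChIP genes held 106 ± 4.36 CPM per kb (SD, n = 20), from 98.2 to 116.

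Members differed widely in how steady they were. The SD of log2 CPM between libraries of a group was 1.94 for Kcne2 and 1.91 for Kcnj13, then 0.784 for Kcng3, 0.505 for Kcnmb1 and 0.496 for Kcne1l. It was 0.104 for Kcnu1, 0.112 for Kcnip4, 0.113 for Kcnh3, 0.116 for Kcnk2 and 0.118 for Kcnn1. Between the lowest and the highest of the 20 libraries Kcne2 differed 81.5-fold and Kcnj13 90.6-fold, against 1.32-fold for Kcnip4.

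Kcne2 and Kcnj13 varied together with markers of the choroid plexus, the epithelium that makes cerebrospinal fluid and borders the hippocampus. Kcne2 encodes a small membrane subunit and Kcnj13 the inward rectifier Kir7.1, and both are known from that epithelium. Their windows ahead of the start site (RefSeq, build GRCm38.p6) are shown because these 2 members moved together. Capitals mark the TGACG half-site on either strand and the TATAAA box; these motifs do not overlap, and 17.8% and 12.4% of all 32851 promoter windows of this length hold them. Kcne2 at chr16:92292139-92292388 is on the plus strand and Kcnj13 at chr1:87394730-87394979 on the minus strand. A match is a description of the letters only. Both windows hold the half-site and that of Kcnj13 also holds the TATA box, while a second start of Kcne2 in RefSeq holds none of the 4 motifs.
Kcne2: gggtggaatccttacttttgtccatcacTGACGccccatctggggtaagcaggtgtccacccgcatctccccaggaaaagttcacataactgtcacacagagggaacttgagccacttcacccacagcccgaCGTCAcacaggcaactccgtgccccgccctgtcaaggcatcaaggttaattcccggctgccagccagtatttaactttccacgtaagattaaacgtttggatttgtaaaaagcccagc
Kcnj13: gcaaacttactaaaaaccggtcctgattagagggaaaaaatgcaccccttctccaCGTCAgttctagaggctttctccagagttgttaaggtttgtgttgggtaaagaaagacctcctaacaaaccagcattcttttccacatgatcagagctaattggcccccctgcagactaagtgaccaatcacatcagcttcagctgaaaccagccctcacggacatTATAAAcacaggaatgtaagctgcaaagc

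Kcne2 at 5 months was 28.9, 18.5, 1.02, 0.355 and 1.34 CPM in controls and 9.31, 0.381, 0.880, 5.32 and 1.81 CPM in enriched mice. In older mice it was 9.86, 9.14, 0.688, 0.442 and 0.771 CPM in controls and 0.645, 0.906, 0.523, 0.979 and 0.939 CPM in enriched mice. Above 5 CPM thus lay 6 libraries, of which none was from the 24-month enriched group, and the groups overlapped. Kcnj13 at 5 months was 12.8, 6.73, 0.724, 0.142 and 0.575 CPM in controls and 5.38, 0.190, 0.652, 2.06 and 0.640 CPM in enriched mice. In older mice it was 4.28, 6.30, 0.181, 0.204 and 0.432 CPM in controls and 0.322, 0.467, 1.08, 0.544 and 0.515 CPM in enriched mice. The same 6 libraries were highest.

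The thyroxine carrier Ttr, the most abundant of the 5 choroid plexus markers, was 3980 and 2595 CPM in 5-month controls 1 and 2, 1241 and 707 CPM in 5-month enriched mice 1 and 4, and 1533 and 2197 CPM in 24-month controls 1 and 2. In the other 14 libraries it lay between 32.2 and 209 CPM. The 5 libraries highest in Ttr were also the 5 highest in Kcne2 and the 5 highest in Kcnj13. In bulk tissue, fewer cells of a type and less RNA per cell cannot be told apart. Kcnj13 shares 49.1% of its exon length with Gigyf2 (87.5 CPM) on the opposite strand, so its counts are uncertain in part. Whether the overlap added or removed reads was not tested.

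**Figure D4:**
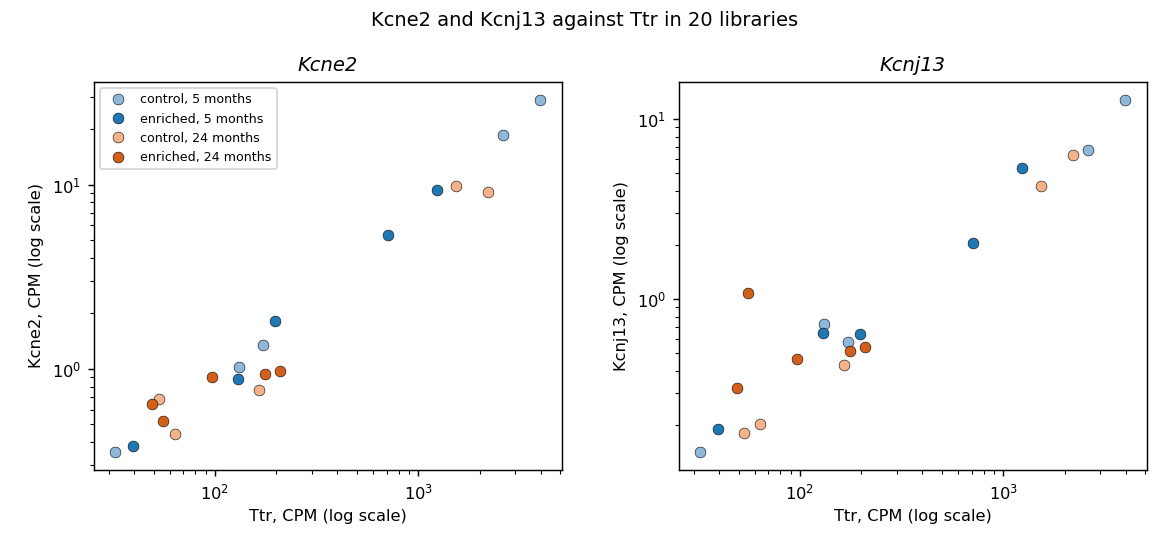
CPM of Kcne2 (left) and Kcnj13 (right) against CPM of Ttr in the 20 libraries, log axes, coloured by group. The libraries highest in Ttr, up to 3980 CPM, are also highest in both genes. All 24-month enriched libraries lie among those with 32.2 to 209 CPM of Ttr, together with libraries of every other group.

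With age Kcne2 had a log2 fold change of -1.68 ± 0.75 (SE, adjusted p = 0.234) and Kcnj13 one of -1.23, so neither was called. With housing they had -1.94 ± 0.75 and -1.60 ± 0.74 over both ages (adjusted p = 0.9997 each), also not called. All 5 choroid plexus markers were lower in enriched mice in that comparison too, with a median log2 fold change of -1.69. Each of the 5 had an unadjusted p under 0.05 by edgeR and none was called. When the levels of choroid plexus and meninges markers entered the fit as covariates, the housing values became 0.05 for Kcne2 and 0.39 for Kcnj13. Kcne1l, the other KCNE gene among the members, was 15.1 CPM in replicate 4 of the 5-month enriched group, the library highest in astrocyte markers, and 3.55 to 5.65 CPM in the other 4 of that group. The part of those cells in this value was not tested.

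The enriched environment changed no member by the test. Kcnj2, an inward rectifier that holds the resting potential, had the smallest p over both ages, with 13.1 ± 2.89 CPM in controls and 17.7 ± 5.02 CPM in enriched mice (SD, n = 10 each). Kcnv1, a silent subunit of forebrain neurons, and Kcna4, a Kv1 channel, had smaller differences. Kcne2 and Kcnj13, given above, had larger ones in the other direction. All of these had an unadjusted p under 0.05 by edgeR. None of the 74 members was called over both ages, at 5 months, at 24 months or in the difference between ages, beside 0.0% of all genes in each of these 4 comparisons. DESeq2 also called none.

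Kcnj2 at 5 months was 11.8, 11.6, 17.5, 9.25 and 8.51 CPM in controls and 18.9, 12.6, 25.95, 16.1 and 17.8 CPM in enriched mice. The 24-month values were 15.0, 13.2, 13.2, 14.6 and 16.3 CPM in controls and 19.4, 13.5, 25.1, 16.8 and 10.5 CPM in enriched mice. The groups overlapped at both ages. The log2 fold change with enrichment was 0.43 ± 0.15 over both ages (unadjusted p = 0.00951, adjusted p = 0.9997), 0.63 ± 0.22 at 5 months and 0.24 at 24 months.

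Kcnv1 at 5 months was 38.3, 35.8, 41.1, 32.8 and 35.9 CPM in controls and 45.1, 50.1, 46.4, 44.3 and 37.03 CPM in enriched mice. At 24 months it was 38.4, 41.2, 46.4, 35.2 and 38.7 CPM in controls and 47.0, 38.9, 38.5, 39.9 and 39.1 CPM in enriched mice. At 5 months 4 of the 5 enriched libraries lay above every control, and at 24 months the groups overlapped. Its log2 fold change was 0.28 ± 0.08 at 5 months (unadjusted p = 0.00373) and 0.02 at 24 months. The difference of these effects was -0.25 ± 0.12 (unadjusted p = 0.0470, adjusted p = 0.9999), the smallest p of any member in that comparison, and it was not called. The next were Kcnk4 at 0.33 ± 0.18 and Kcnk2, a leak channel opened by stretch, at 0.18 ± 0.10.

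Over both ages, 5 members (6.76%) had an unadjusted p under 0.05 for housing, beside 3.19% of all genes tested. They were Kcnj2, Kcnv1 and Kcna4, with Kcne2 and Kcnj13, which varied together with choroid plexus markers. Kcna4 had 0.24 ± 0.09, from 28.3 ± 3.45 to 33.5 ± 5.67 CPM (SD, n = 10 each). Kcnh2, the ERG channel, came next at -0.11 ± 0.07. The numbers were 2 (2.70%, beside 2.57%) at 5 months, 1 (1.35%, beside 1.84%) at 24 months, which was Kcne2, and 1 (1.35%, beside 1.59%) in the difference between ages. At 24 months Kcnj4 had the third smallest p, at 0.18 ± 0.11. The 95% interval of the housing effect lay within a 1.5-fold change either way for 68 of 74 members (91.9%), beside 96.4% of tested genes that averaged 1 CPM or more. The other 6 were Kcnj13, Kcne1l, Kcnmb1, Kcnj2, Kcne2 and Kcng3.

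**Figure D5:**
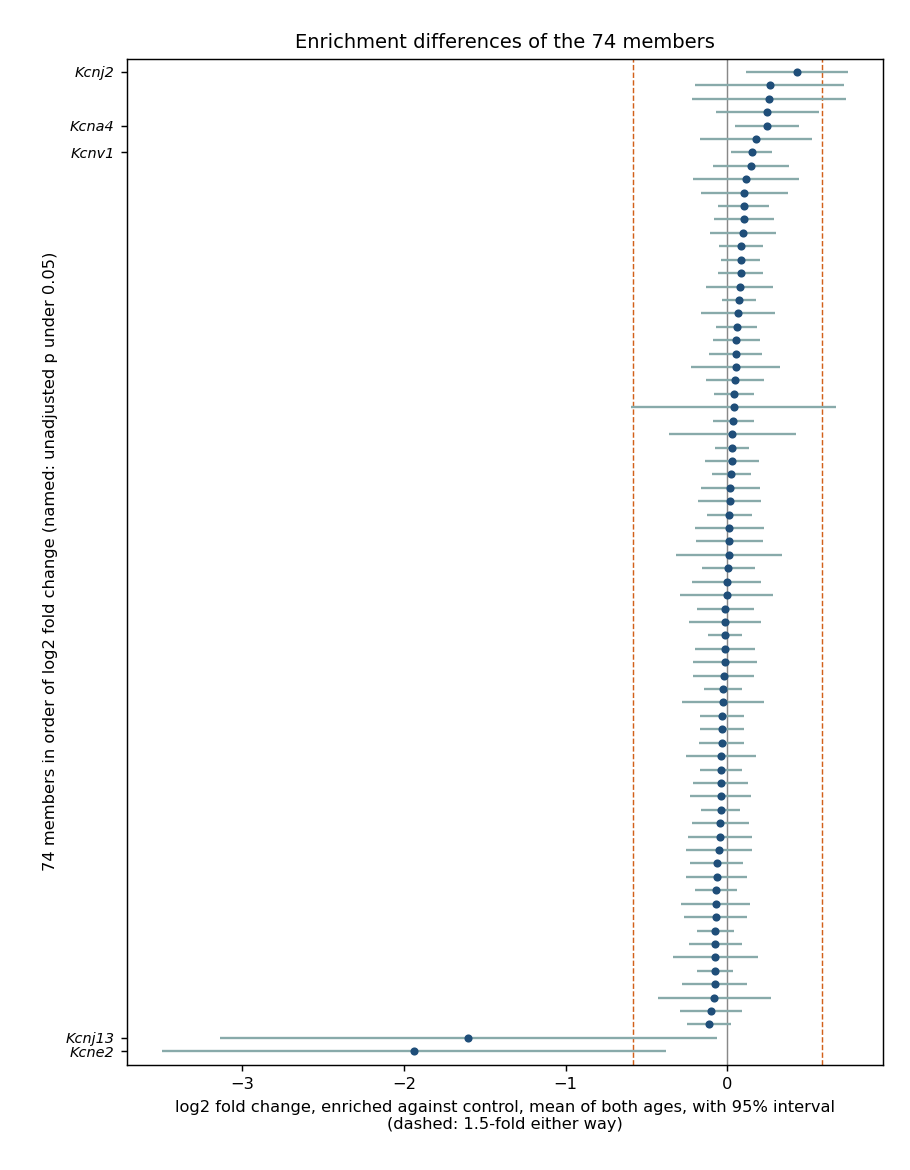
Log2 fold change between enriched and control mice, mean of both ages, for each of the 74 members with its 95% interval; members with an unadjusted p under 0.05 are named and dashed lines mark a 1.5-fold change either way. Kcnj2 is at the top with 0.43, and Kcnj13 and Kcne2 at the bottom have intervals far wider than the rest.

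Genes of other ion transporters and channels were examined with the same test. By edgeR, none was called in any of the 7 comparisons among 18 tested partners of potassium channels with other names (such as Dpp6, which joins Kv4 channels), 16 potassium pumps and cotransporters, 11 voltage-gated sodium channel genes, 24 voltage-gated calcium channel genes and 4 HCN genes. Between ages with both housings 0, 1, 3, 0 and 0 of them had an unadjusted p under 0.05, beside 18.1% of all genes tested, and in that comparison DESeq2 called 1. Among the cell type markers, Aqp4, the astrocyte water channel that sits beside Kir4.1 in glial endfeet, was called lower at 24 months at -0.41 ± 0.08 (adjusted p = 0.00794). It was the 1 called of 4 astrocyte markers, of which 2 had a log2 fold change above 0, and the median of the 4 was -0.03. Gpr17 was called lower at -1.02 ± 0.10 (adjusted p = 4.55e-06), the 1 called of 3 markers of oligodendrocyte precursors, whose median was -0.07. Both calls were between ages with both housings, where no marker of the other cell type lists was called. In that comparison 3.04% of all genes tested were called.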

How the data were processed

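RNA from the hippocampus of male mice was sequenced in 20 libraries. Per the labels' protocols, libraries were made with a TruSeq v2 kit, which does not mark strand. Per the submitters' processing notes, the tools were featureCounts (1.4.6-p4), STAR (2.4.1d) and CASAVA (1.8.2), with the build GRCm38. Not given in the sources used here were annotation release, strand setting and the treatment of multi-mapped reads. The authors deposited raw counts per gene, which were used without change; a second table, named RPKM, was not used here. Symbols for 47310 of 47729 genes and exon lengths came from GENCODE M21 (GRCm38), and 25 members share exon bases with another gene.

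Counts were scaled by TMM and filtered (filterByExpr, minimum count 10). They were fitted in edgeR 4.0.16 (R 4.3.3) with 1 coefficient per group over all 20 libraries, and 7 comparisons were tested. The SE is the size of the change over the square root of its F statistic. The median SE was 0.0791 with both groups pooled and 0.112 between 2 groups, the precision that 5 libraries a group at this depth gave. CPM used TMM-scaled library sizes, while the 1 CPM limit used total counts. Alternatives were DESeq2 1.42.0, other scaling factors, other filters, marker covariates, the compared groups only, and leaving out libraries. Replicate numbers only name libraries, and no batch is labelled.

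Named members were those called, those of smallest p, the highest of each subfamily, those of a known role in hippocampus, the most and least variable, those next to the 1 CPM limit, and called genes of the other lists. The members and lists were chosen with earlier results of these data known, and the role groups and motifs after the values were seen. Some members that this rule names are not reported here.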

Additional observations from a re-analysis of the deposited data

Results flagged for a closer look

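In each group of 5 libraries the level of each member was examined for a single library far from the other 4 (Dixon's criterion). Of 296 combinations of member and group, 22 were picked out, or 7.43 per 100. About 1 in 20 would be picked if values were normal and independent, and members of 1 library are not independent. The share over all genes was not computed, so the number is no result about these members. Values are CPM with the range of the other 4 libraries.

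Replicate 5 of the 5-month enriched group, the library richest in oligodendrocyte markers, held 6 of them. Kcnk13 was high there at 16.1 (others 7.81 to 8.54), Kcnip1 at 30.0 (17.5 to 20.8) and Kcnmb1 at 2.96 (0.783 to 1.397). Kcna4 was low at 28.6 (34.6 to 36.8), Kcns2 at 24.1 (33.4 to 35.6) and Kcnk10 at 3.57 (5.27 to 5.96).

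Replicate 4 of the same group, the library richest in astrocyte markers, held 3: Kcne1l was high at 15.1 (3.55 to 5.65), Kcnk6 was high at 4.22 (2.67 to 3.07) and Kcnf1 was low at 54.4 (83.4 to 93.6). Replicate 3 of the 24-month controls held 3 high values, Kcnma1 at 156 (74.6 to 96.4), Kcnh7 at 95.1 (60.6 to 69.8) and Kcng3 at 4.82 (1.46 to 2.19).

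A pair each came from 24-month enriched replicate 1, with Kcnd3 at 132 (98.4 to 106) and Kcnv1 at 47.0 (38.5 to 39.9), and from replicate 2, with Kcnip1 at 26.02 (20.1 to 20.9) and Kcnk1 at 64.3 (73.4 to 74.2). The remaining 6 were single. Kcnf1 was 109 in 5-month control 3 (74.6 to 80.1), Kcnh5 was 1.82 in 5-month control 2 (4.01 to 4.50) and Kcnk10 was 2.98 in 5-month control 4 (4.67 to 5.25). Kcnn2 was 53.3 in 5-month enriched 2 (46.0 to 47.9), Kcnj11 was 16.9 in 24-month control 5 (12.4 to 13.4) and Kcnu1 was 2.75 in 24-month control 2 (3.24 to 3.40). The part of other cell types in these values was not tested.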

How the results depend on the processing

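Between ages with both housings, DESeq2 called 4 members (Kcns1, Kcng4, Kcnh3 and Kcnt1) and a fit with no filter on low counts called 1 (Kcns1; Kcng4 then had adjusted p = 0.0525), against 2 by edgeR as reported. Leaving out 1 library at a time gave 1 to 4. In enriched mice between ages DESeq2 called 1 and leaving out 1 library gave 0 to 2, the 2 (Kcns1 and Kcnj4) without 24-month enriched 2. In the remaining comparisons no setting called a member. Kcns1 was called between ages under all 20 omissions and all 7 other settings, and Kcng4 under 13 and 6. With choroid plexus and meninges covariates the housing values turned from negative to positive for Kcne2 over both ages (0.0529) and for Kcnj13 over both ages (0.39) and at 24 months (0.47), and the cause was not tested. Over all genes, 532 were called between ages with both housings as reported, 976 by DESeq2, 304 with the covariates and 901 without the 2 libraries highest in astrocyte markers and in albumin. No paired analysis was possible because the labels give no replicate numbers that the groups share. Members at low level, such as Kcng3 and Kcnmb1, have the widest intervals apart from Kcne2 and Kcnj13.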
